A study of Mus musculus with 9 samples.

Results

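The potassium, sodium, calcium and TRP (transient receptor potential) channel genes of mouse granulosa cells were followed through the first 6 h after an ovulatory dose of hCG. Granulosa cells are the somatic cells that line the ovarian follicle and surround the oocyte. Genes were taken by symbol, as protein-coding genes beginning with Kcn, Scn and a number, Cacna, Cacnb, Cacng, Trpc, Trpm or Trpv. Of 156 such genes in the deposited tables, 49 reached 1 FPKM (a count of fragments divided by transcript length and by the library's mapped fragments) in at least 3 of the 9 libraries. These 49 were 32 of 94 potassium, 2 of 14 sodium, 7 of 26 calcium and 8 of 22 TRP genes, among the 14535 of 25059 genes of all kinds that passed the same filter. One of them, *Trpc4ap*, has a TRP symbol but encodes a protein associated with a TRP channel and is not itself a channel. Because the level chose the genes, the levels are a description, and a gene that is high only at 6 h could enter only through that group, as *Kcnk10*, *Kcne4*, *Kcnv2* and *Kcnrg* did.

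All mice were of the Kunming strain at postnatal day 21 and had received 5 IU of PMSG, a gonadotropin that drives follicle growth, 48 h earlier. The 0 h group carries only that treatment, per its label. The 1 h and 6 h groups were taken 1 h and 6 h after 5 IU of hCG, a ligand of the LH receptor that sets off ovulation. Each group had 3 libraries made from total RNA. No label says that the 3 libraries came from separate animals or pools, so p-values measure the spread between libraries, which may be technical. Time after hCG and time of day cannot be told apart in this design, and in bulk RNA fewer cells of a type and less RNA per cell cannot be told apart.

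Potassium channels let potassium leave the cell and hold the membrane potential negative, and their families differ in what opens them: voltage, calcium, sodium, G proteins, stretch, acid or nothing but the resting gradient. Voltage-gated calcium and sodium channels open when the membrane is depolarized, and most TRP channels pass sodium and calcium in response to receptors, lipids, temperature or mechanical force. Many channels are assembled from a pore subunit and auxiliary subunits that set its gating and its amount at the cell surface. In the ovary, LH receptor signalling raises cyclic AMP and calcium in granulosa cells, and both bear on channel opening.

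The 49 genes are spread unevenly over the roles. The pore subunits of voltage-gated potassium channels had 9 of 40 genes above the filter, and their auxiliary subunits 8 of 13. Inward rectifiers had 5 of 15, the tandem-pore leak channels 5 of 14, and the calcium- or sodium-activated potassium channels with their beta subunits 5 of 12. None of the 10 sodium channel pore genes passed, while 2 of 4 sodium channel beta subunits did. For calcium channels, 4 of 10 pore genes, 1 of 4 alpha2delta genes, 2 of 4 beta genes and 0 of 8 gamma genes passed. The TRPC, TRPM and TRPV groups had 3 of 7, 3 of 8 and 1 of 6. Of the 107 genes that did not pass, 101 were below 1 FPKM in every library and 7 were listed at 0 in all of them. At the edge of the rule, with the third-highest library as its measure, *Kcnh1* (0.844 FPKM), *Trpc4* (0.773 FPKM) and *Cacnb2* (0.762 FPKM) fell just outside, and *Kcnrg* (1.06 FPKM), *Kcnc2* (1.24 FPKM) and *Kcnu1* (1.24 FPKM) just inside.

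The places of the genes described in most detail are as follows. On build mm10 of the GENCODE M21 annotation, *Kcnk5* spans chr14:20140057-20181809, *Cacna2d1* chr5:15934691-16374511, *Trpc5* chrX:144381671-144688180, *Kcnh2* chr5:24319589-24351604, *Kcne2* chr16:92292389-92298129 and *Kcnj3* chr2:55435970-55598145. The files give 1 level for each row of a gene, and the level of a gene is the sum of its rows. A value thus stands for those rows together and for no single exon. Which exons the rows cover is not given.

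Libraries of the same time correlated at 0.982 to 0.988 over the tested genes and libraries of different times at 0.874 to 0.972. The granulosa marker list, which holds *Fshr* and *Cyp19a1*, summed to 10650 to 11350 FPKM at 0 h, 10860 to 15680 at 1 h and 5076 to 5386 at 6 h, with 8 of its 10 genes lower and 1 higher at 6 h against 0 h. Markers of other cells moved as well. The 10 oocyte markers summed to 43.0 to 67.0 FPKM at 0 h, 56.1 to 70.7 at 1 h and 78.2 to 120.8 at 6 h, and all 9 that were tested rose at 6 h against 0 h, with a median log2 change of 0.85. The 9 theca and stroma markers summed to 179 to 277, 234 to 378 and 95.8 to 117.0 FPKM, with 3 of 8 tested lower at 6 h. The 8 endothelial markers summed to 17.9 to 25.4, 21.2 to 23.6 and 26.6 to 34.7 FPKM, with 3 of 7 tested higher at 6 h. The 8 smooth muscle and pericyte markers summed to 31.2 to 41.7, 39.4 to 44.3 and 28.9 to 30.2 FPKM, with 2 of 6 tested lower at 6 h. Of the 8 neuron and glia markers, 1 of 3 tested rose and 1 fell at 6 h, with sums of 28.8 to 40.8, 27.1 to 31.7 and 51.8 to 57.8 FPKM, or 28.7 to 40.7, 26.9 to 31.5 and 20.6 to 25.4 FPKM without *Snap25*. The 4 erythroid markers summed to 128 to 198, 86.1 to 192 and 67.0 to 126 FPKM, with 2 of 3 tested lower at 6 h (median log2 change -0.75). The 9 leukocyte markers summed to 12.6 to 20.7, 16.6 to 22.9 and 11.3 to 14.7 FPKM, with 1 of 4 tested lower, and of the 5 surface epithelium markers 1 of 3 tested was lower, with sums of 6.60 to 8.50, 6.76 to 10.1 and 5.44 to 8.09 FPKM. No list had a gene at 0 in all libraries, and the part of these cells in the channel results below was not tested.

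Before hCG the most abundant channel transcripts came from several families. At 0 h, after *Trpc4ap* (44.0 ± 0.436 FPKM, SD, n = 3), the highest were *Trpm7*, a magnesium- and calcium-permeable channel fused to a kinase, at 30.7 ± 3.21 FPKM, and *Kcnj3*, a G protein-gated inward rectifier, at 24.0 ± 2.39 FPKM. *Kcnh2*, the pore of the rapid delayed rectifier known from cardiac repolarization, stood at 22.7 ± 2.08 FPKM. *Kcnma1*, the large-conductance calcium-activated potassium channel, stood at 19.4 ± 2.78 FPKM. At 6 h the order was different: *Cacna2d1*, the alpha2delta subunit of voltage-gated calcium channels, was highest at 63.2 ± 4.69 FPKM, and *Kcnk5*, an acid-sensitive tandem-pore leak channel, had reached 17.8 ± 2.26 FPKM beside *Kcnma1* at 17.9 ± 1.5 FPKM. *Kcnk5* and *Kcnma1* at 6 h did not differ beyond their spread.

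The first comparison asked what had changed 1 h after hCG. Of the 49 genes, 5 rose and 1 fell (limma, adjusted p below 0.05, also below). That is 10.2% higher and 2.04% lower, where 9.68% and 5.98% of all tested genes were called (15.7% in either direction), so the share of channel genes that rose is near the background. In 8 genes every 1 h library lay above every 0 h library and in 3 below, against 18.3% and 17.2% of all tested genes. The median log2 change of the 49 was -0.02, and that of all tested genes 0.00. Those that rose included *Scn3b*, *Kcnk5*, *Trpv4* and *Cacna2d1*, and the 1 that fell was *Cacna1a*. Leaving out replicate 1 or 3 of the 0 h group or replicate 3 of the 1 h group brought the risers to 3, and leaving out replicate 1 of the 0 h or of the 1 h group brought the fallers to 0.

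*Trpv4*, a calcium-permeable channel opened by warmth, swelling and lipids, measured 2.5, 2.39 and 1.95 FPKM at 0 h. At 1 h it had 4.54, 2.90 and 4.98 FPKM, and at 6 h 0.326, 0.442 and 0.781 FPKM. The groups did not overlap in any comparison. The rise of 0.63 ± 0.18 on the log2 scale at 1 h (adjusted p = 0.0442) was lost under 13 of 16 other settings, at adjusted p of 0.051 to 0.358. The later fall was larger: -1.12 ± 0.18 against 0 h (adjusted p = 0.000538) and -1.75 ± 0.18 against 1 h (adjusted p = 3.61e-05). On its most abundant row alone the fall against 0 h missed the threshold (adjusted p = 0.0627).

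*Scn3b* encodes a beta subunit that sits beside sodium channel pores. Its 0 h libraries measured 1.64, 2.09 and 1.76 FPKM. The 1 h libraries spread widely, at 3.26, 8.02 and 5.79 FPKM, and the 6 h libraries measured 6.99, 6.42 and 3.64 FPKM. All 6 libraries after hCG lay above the 3 before it, and the 1 h and 6 h groups overlapped. The log2 change was 1.18 ± 0.27 at 1 h (adjusted p = 0.0182) and 1.20 ± 0.27 at 6 h (adjusted p = 0.00403). The call at 1 h was lost without replicate 1 or 3 of the 0 h group or replicate 3 of the 1 h group (adjusted p of 0.0569 to 0.0669). No sodium channel pore gene passed the filter, so *Scn3b* was measured without a partner of that class above it.

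*Cacna1a*, the pore of P/Q-type calcium channels, fell at each step. It measured 3.66, 2.91 and 3.14 FPKM at 0 h, 1.90, 1.77 and 2.09 FPKM at 1 h, and 0.654, 0.466 and 0.633 FPKM at 6 h. No library of one time overlapped another time. The log2 change was -0.53 ± 0.12 at 1 h (adjusted p = 0.0148) and -1.42 ± 0.12 at 6 h (adjusted p = 6.85e-06). Without replicate 1 of the 0 h group or of the 1 h group, the change at 1 h missed the threshold (adjusted p of 0.0606 and 0.0508).

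**Figure D1:**
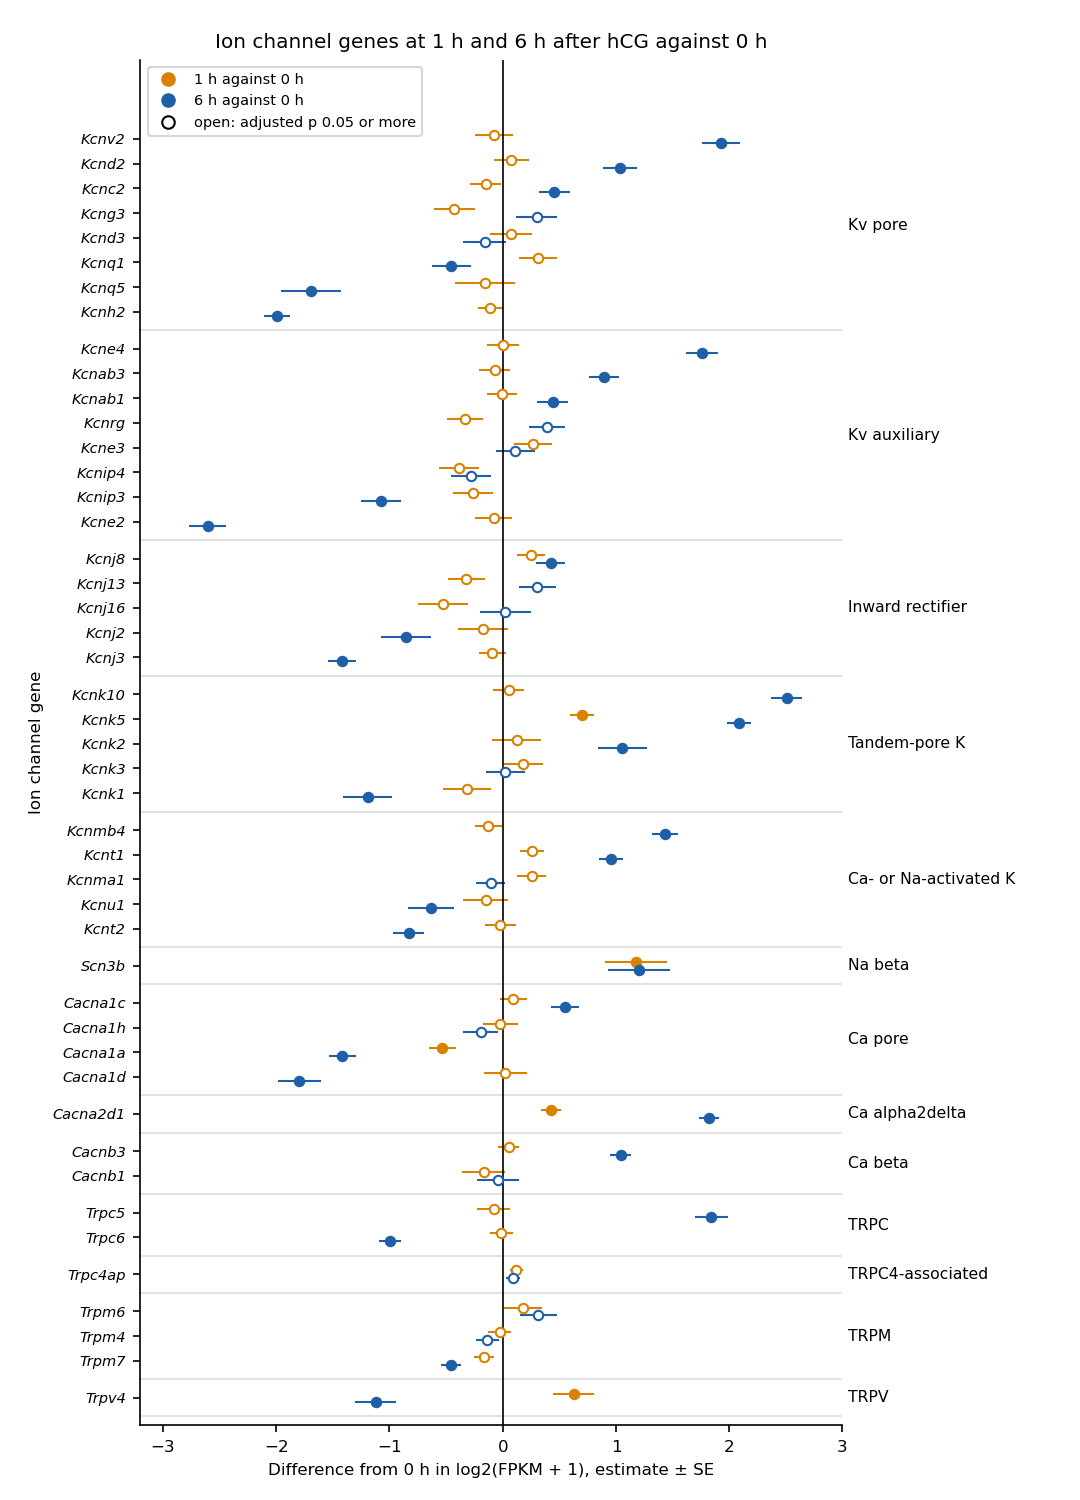
Difference from 0 h in log2(FPKM + 1), as estimate ± SE from the fit of 3 libraries per time, for 46 of the genes (vertical axis, grouped by role), at 1 h (orange) and 6 h (blue); filled points passed an adjusted p of 0.05. At 1 h 5 points are filled, and at 6 h 32 are, with filled blue points on both sides of 0 in all 5 potassium groups.

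At 6 h against 0 h, 18 of the 49 genes rose and 16 fell, which is 36.7% and 32.7% where 28.8% and 27.9% of all tested genes were called (56.6% in either direction). The 18 include *Kcnk10*, *Kcne4* and *Kcnv2*, which entered the set through their 6 h libraries only. In 22 genes every 6 h library lay above every 0 h library, and in 16 below, where 32.9% and 32.1% of all tested genes were separated in that way. The median log2 change of the 49 was 0.09 against 0.00 for all tested genes, and the median size of the change, without its sign, was 0.84 against 0.38. Genes that rose and genes that fell stood side by side in all 5 potassium roles, among the calcium pores and among the TRPC genes.

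Among the tandem-pore leak channels, 3 of 5 rose and 1 fell. *Kcnk5* measured 3.09, 3.57 and 3.59 FPKM at 0 h, 6.24, 5.67 and 6.62 FPKM at 1 h, and 16.4, 20.4 and 16.6 FPKM at 6 h. The 3 times did not overlap and rose in order. Its log2 change was 0.70 ± 0.11 at 1 h (adjusted p = 0.00223) and 2.09 ± 0.11 at 6 h (adjusted p = 3.3e-07), and the mean at 6 h was 5.22 times that at 0 h.

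*Kcnk10*, a stretch- and lipid-sensitive tandem-pore channel, was close to silent before 6 h. One 0 h library listed it at 0 and the others at 0.173 and 0.0322 FPKM, and the 1 h libraries measured 0.0637, 0.115 and 0.137 FPKM. At 6 h it measured 5.14, 5.94 and 4.23 FPKM, a log2 change of 2.51 ± 0.14 (adjusted p = 4.81e-07), the highest among the 49. *Kcnk10* entered the set through its 6 h libraries only, so this rise is partly built into the choice. *Kcnk2*, a mechanosensitive channel of the same subfamily, rose from 1.05, 0.843 and 1.5 FPKM to 3.52, 4.62 and 2.32 FPKM, by 1.05 ± 0.22 (adjusted p = 0.00232). In the annotation 12.2% of the exonic bases of *Kcnk2* also lie in *A430027H14Rik* on the opposite strand, for which no level is listed. *Kcnk1*, a weakly conducting member, fell from 6.37 ± 1.07 to 2.24 ± 0.650 FPKM, by 1.19 on the log2 scale (adjusted p = 0.00102). *Kcnk3*, an acid-sensitive background channel, measured 14.2 ± 3.70, 15.9 ± 0.418 and 14.3 ± 2.73 FPKM and was called in no comparison.

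The voltage-gated potassium pores divided 3 higher and 3 lower of 9 at 6 h. *Kcnh2* measured 24.3, 20.3 and 23.4 FPKM at 0 h, 19.9, 20.3 and 22.6 FPKM at 1 h, and 4.31, 4.69 and 5.92 FPKM at 6 h. The 0 h and 1 h libraries overlapped and the 6 h libraries lay far below both. The log2 change at 6 h was -1.99 ± 0.11 (adjusted p = 5.43e-07), with the mean at 0 h 4.56 times that at 6 h.

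*Kcnq5*, a pore of slowly activating channels that receptors can close, measured 6.34, 10.9 and 13.7 FPKM at 0 h and 2.14, 1.59 and 3.66 FPKM at 6 h. Its 0 h libraries differed by more than those of *Kcnh2*, yet the groups did not overlap, and its log2 change was -1.69 ± 0.27 (adjusted p = 0.000447). *Kcnq1*, which forms the slow cardiac delayed rectifier, went from 1.83 ± 0.225 to 1.08 ± 0.279 FPKM, a change of -0.45 ± 0.17 (adjusted p = 0.0435). That call was lost under 9 of 16 other settings, at adjusted p of 0.0539 to 0.125.

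*Kcnv2*, an electrically silent subunit that forms channels only together with other pores, rose from 0.0856, 0.139 and 0.212 FPKM to 3.30, 4.54 and 2.46 FPKM. No 1 h library exceeded 0.0964 FPKM. Its log2 change was 1.93 ± 0.17 (adjusted p = 9.14e-06). *Kcnv2* entered the set through its 6 h libraries only, so this rise is partly built into the choice. *Kcnd2*, a pore of rapidly inactivating A-type channels, rose from 2.06 ± 0.241 to 5.31 ± 1.02 FPKM, by 1.03 ± 0.15 (adjusted p = 0.000285). *Kcnd3*, a closely related A-type pore, measured 3.86 ± 0.663 and 3.42 ± 1.15 FPKM at 0 h and 6 h, a change of -0.16 ± 0.19 that did not pass (adjusted p = 0.496). *Kcnc2*, a pore of fast delayed rectifiers, measured 0.807 ± 0.243 and 1.47 ± 0.203 FPKM, and its change of 0.46 ± 0.14 (adjusted p = 0.0173) was lost under 4 of 16 other settings. *Kcng3*, another silent subunit, measured 4.22 ± 1.32, 2.84 ± 0.648 and 5.30 ± 0.435 FPKM and was called only at 6 h against 1 h, by 0.73 ± 0.18 (adjusted p = 0.00757).

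Among the auxiliary subunits of voltage-gated potassium channels, 3 of 8 rose and 2 fell. *Kcne2* is a single-pass subunit known to associate with the *Kcnh2* and *Kcnq1* pores. It measured 8.82, 5.13 and 6.94 FPKM at 0 h, 5.86, 6.30 and 7.08 FPKM at 1 h, and 0.292, 0.204 and 0.357 FPKM at 6 h. Its fall of 2.61 on the log2 scale (SE 0.16, adjusted p = 1.05e-06) was the largest among the 49, and the mean at 0 h was 24.5 times that at 6 h.

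*Kcne4*, a subunit of the same family that inhibits several voltage-gated pores, did the opposite. It measured 0.230, 0.288 and 0.188 FPKM at 0 h, 0.233, 0.0821 and 0.422 FPKM at 1 h, and 3.09, 2.86 and 3.66 FPKM at 6 h. The log2 change was 1.76 ± 0.14 (adjusted p = 5.2e-06). *Kcne4* entered the set through its 6 h libraries only, so this rise is partly built into the choice. *Kcne3*, the third member of this family above the filter, measured 1.41 ± 0.271, 1.91 ± 0.398 and 1.63 ± 0.518 FPKM and passed in no comparison.

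*Kcnab3* and *Kcnab1* encode cytoplasmic beta subunits. *Kcnab3* rose from 7.0 ± 1.28 to 13.8 ± 0.415 FPKM, by 0.90 ± 0.13 (adjusted p = 0.000331). The smaller change of *Kcnab1*, from 3.76 ± 0.784 to 5.43 ± 0.570 FPKM (0.44 ± 0.14, adjusted p = 0.0187), was lost in 4 of 16 other settings, each of which left out a library. *Kcnip3*, a calcium-binding partner of A-type channels that also acts as a transcriptional repressor, fell from 4.94 ± 0.543 to 1.83 ± 0.330 FPKM, by 1.07 on the log2 scale (adjusted p = 0.000583). On the most abundant row alone its change did not pass (adjusted p = 0.658). *Kcnip4*, from the same family, measured 2.41 ± 0.471, 1.63 ± 0.581 and 1.80 ± 0.227 FPKM and passed in no comparison. *Kcnrg*, a regulator of potassium channel assembly, measured 0.850 ± 0.133, 0.479 ± 0.212 and 1.44 ± 0.328 FPKM and passed only at 6 h against 1 h, by 0.73 ± 0.16 (adjusted p = 0.00346). It entered the set through its 6 h libraries only, so this rise is partly built into the choice.

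Of the 5 inward rectifiers, 1 rose and 2 fell at 6 h. *Kcnj3* measured 23.2, 22.1 and 26.6 FPKM at 0 h, 19.7, 25 and 22.6 FPKM at 1 h, and 7.87, 7.44 and 9.75 FPKM at 6 h. The 6 h libraries lay below all others, at a log2 change of -1.42 ± 0.12 (adjusted p = 7.45e-06). Its usual partners in G protein-gated channels, *Kcnj5*, *Kcnj6* and *Kcnj9*, were all below the filter, and *Kcnj6* was listed at 0 in every library. In the annotation 31.1% of the exonic bases of *Kcnj3* also lie in *Gm26794* on the opposite strand, which measured 1.35 ± 0.314 FPKM at 0 h and 0.230 ± 0.0701 FPKM at 6 h. The strand of the reads is not given in the sources used here.

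*Kcnj2*, a classical strong inward rectifier, fell from 3.73 ± 0.397 to 1.64 ± 0.574 FPKM, by 0.86 on the log2 scale (adjusted p = 0.00795). *Kcnj16* lies next to *Kcnj2* on chromosome 11, with 38196 bases between them. It measured 6.33 ± 0.402, 4.23 ± 1.56 and 6.58 ± 1.81 FPKM and passed in no comparison, so these neighbours were not called alike. *Kcnj8*, a pore of ATP-sensitive channels, measured 1.00 ± 0.142 FPKM at 0 h and 1.69 ± 0.171 FPKM at 6 h, a rise of 0.42 ± 0.13 (adjusted p = 0.0167) that was lost under 3 of 16 other settings. Of its regulatory partners, *Abcc9* measured 2.17 ± 0.407 and 3.09 ± 0.179 FPKM, a change of 0.38 ± 0.15 that did not pass (adjusted p = 0.0616), and *Abcc8* was below the filter. *Kcnj13*, an inward rectifier of transporting epithelia, passed only at 6 h against 1 h (0.63 ± 0.16, adjusted p = 0.00909). It shares 49.1% of its exonic bases with *Gigyf2* on the opposite strand, at 27.9 ± 2.19, 23.3 ± 2.47 and 32.2 ± 2.04 FPKM, against 3.53 ± 0.647, 2.62 ± 0.435 and 4.63 ± 1.06 FPKM for *Kcnj13* itself.

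The potassium channels opened by internal calcium or sodium showed 2 higher and 2 lower of 5. *Kcnt1* and *Kcnt2* encode the paired sodium-activated potassium channels. *Kcnt1* measured 5.83, 7.16 and 5.85 FPKM at 0 h and 13.9, 12.7 and 12.6 FPKM at 6 h, a log2 change of 0.95 ± 0.11 (adjusted p = 4.94e-05). *Kcnt2* measured 12.9, 16.1 and 19.4 FPKM at 0 h and 8.23, 7.61 and 9.83 FPKM at 6 h, a change of -0.83 ± 0.14 (adjusted p = 0.000624) that did not pass on the most abundant row alone (adjusted p = 0.199). *Kcnt1* was the lower of the pair in each 0 h and 1 h library and the higher in each 6 h library.

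*Kcnmb4*, a beta subunit that slows the large-conductance calcium-activated channel and changes its calcium sensitivity, measured 1.17, 0.876 and 0.983 FPKM at 0 h and 4.04, 4.68 and 4.55 FPKM at 6 h. Its rise was 1.43 ± 0.12 (adjusted p = 6.21e-06). The pore it joins, *Kcnma1*, measured 19.4 ± 2.78, 23.4 ± 3.84 and 17.9 ± 1.5 FPKM and was not called at 6 h against 0 h (-0.11 ± 0.13, adjusted p = 0.506). Antisense genes cover 20.9% and 10.7% of the exonic bases of *Kcnmb4*, and in both every 6 h library lay above every earlier one: *Kcnmb4os2* went from 0.103 ± 0.0928 to 1.05 ± 0.595 FPKM and *Kcnmb4os1* from 0.823 ± 0.293 to 2.01 ± 0.384 FPKM. *Kcnu1*, a relative of *Kcnma1* known from sperm, measured 1.15 ± 0.228 and 0.400 ± 0.240 FPKM, and its fall (log2 -0.63 ± 0.20, adjusted p = 0.0223) was lost under 4 of 16 other settings.

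**Figure D2:**
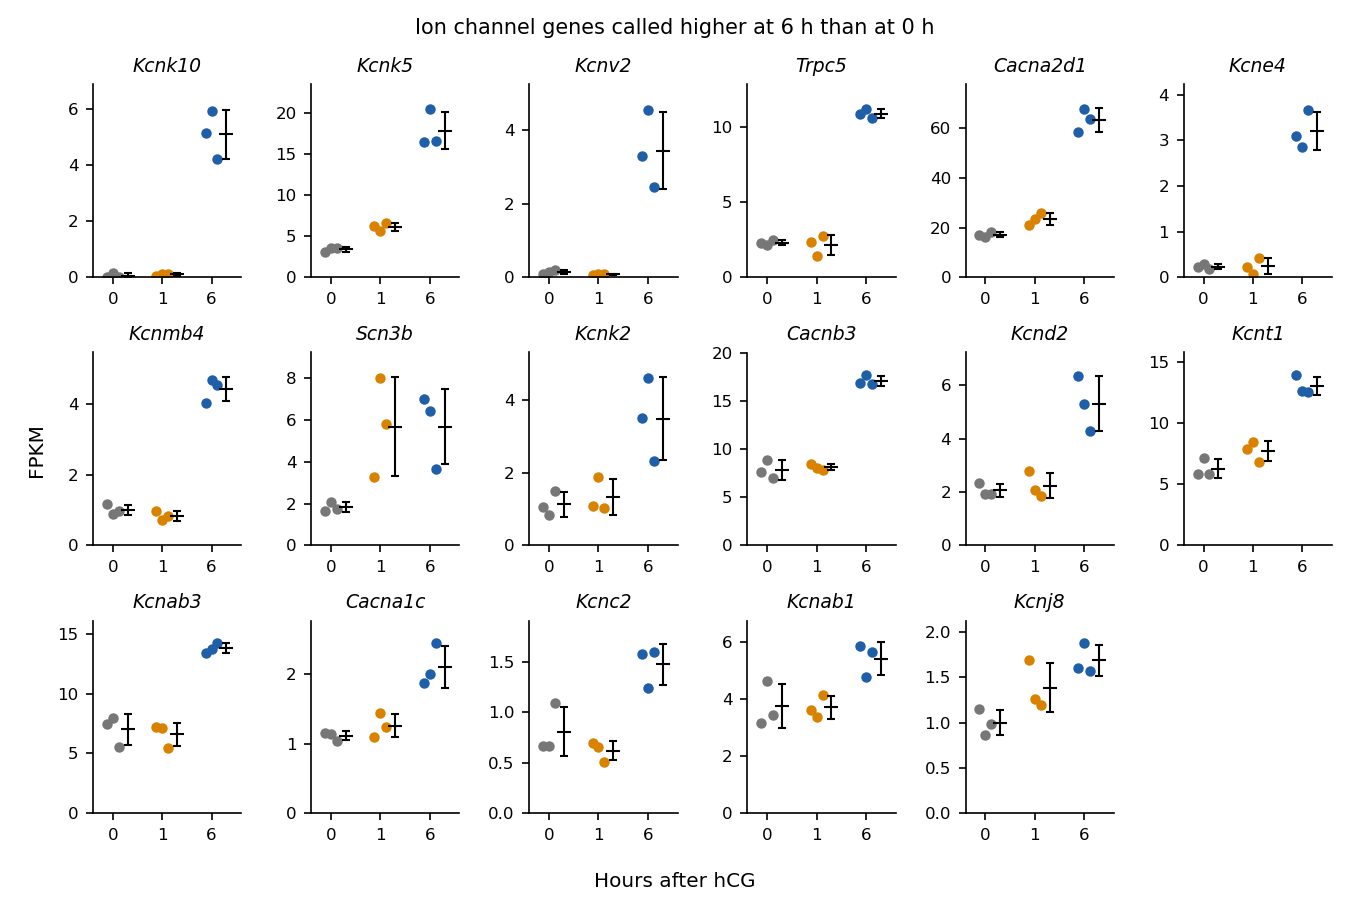
FPKM in each library (points, linear axis from 0) against hours after hCG for 17 genes called higher at 6 h than at 0 h, with the mean and SD of 3 libraries beside each group. *Kcnk10*, *Kcnv2* and *Kcne4* lie below 1 FPKM in all 0 h and 1 h libraries and above 2 FPKM in all 6 h libraries. These genes entered the set through their 6 h libraries only.

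Among the voltage-gated calcium channel genes, the alpha2delta gene and 1 of 2 beta genes rose, and of the 4 pores 2 fell and 1 rose. *Cacna2d1* measured 17.1, 16.3 and 18.1 FPKM at 0 h, 21.0, 23.4 and 26.0 FPKM at 1 h, and 58.3, 67.6 and 63.8 FPKM at 6 h. The 3 times did not overlap. Its log2 change was 0.43 ± 0.09 at 1 h (adjusted p = 0.0115) and 1.82 ± 0.09 at 6 h (adjusted p = 2.57e-07), and the mean at 6 h was 3.68 times that at 0 h. The alpha2delta subunit is known to bring pores to the cell surface.

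*Cacnb3*, a cytoplasmic beta subunit, measured 7.62, 8.92 and 6.97 FPKM at 0 h and 16.9, 17.7 and 16.8 FPKM at 6 h, a rise of 1.04 ± 0.09 (adjusted p = 9.89e-06). *Cacnb1*, the beta subunit best known from skeletal muscle, measured 2.32 ± 0.463 and 2.23 ± 0.463 FPKM and passed in no comparison. Of the pores, *Cacna1d* and *Cacna1c* are both L-type and moved apart. *Cacna1d* measured 6.51, 7.25 and 11.1 FPKM at 0 h, 8.25, 6.74 and 9.98 FPKM at 1 h, and 1.86, 1.38 and 1.62 FPKM at 6 h, a fall of 1.80 on the log2 scale (SE 0.19, adjusted p = 3.18e-05). *Cacna1c* went from 1.16, 1.15 and 1.04 FPKM to 1.87, 2.0 and 2.45 FPKM, a rise of 0.55 ± 0.12 (adjusted p = 0.00321). Every 0 h library had more *Cacna1d* than *Cacna1c*, and every 6 h library had more *Cacna1c*. *Cacna1h*, the T-type pore that opens near resting potentials, had the highest mean of the calcium channel pores at each time, at 12.2 ± 1.02, 12.2 ± 2.62 and 10.6 ± 1.65 FPKM, and passed in no comparison.

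In the TRPC group, whose channels open downstream of receptors that activate phospholipase C, 1 gene rose and 2 fell. *Trpc5* measured 2.28, 2.17 and 2.46 FPKM at 0 h, 2.36, 1.43 and 2.72 FPKM at 1 h, and 10.8, 11.2 and 10.6 FPKM at 6 h. Its rise was 1.84 ± 0.15 (adjusted p = 5.43e-06). *Trpc6* measured 14, 14.4 and 15.4 FPKM at 0 h, 13.3, 13.7 and 16.7 FPKM at 1 h, and 6.35, 6.82 and 7.30 FPKM at 6 h, a fall of 1.00 on the log2 scale (SE 0.10, adjusted p = 2e-05). At 6 h every library had more *Trpc5* than *Trpc6*, and before that every library had less.

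*Trpm7* fell modestly, from 28.0, 29.9 and 34.3 FPKM at 0 h to 23.5, 21.2 and 21.5 FPKM at 6 h, by 0.46 on the log2 scale (adjusted p = 0.00142). *Trpm4*, a sodium-permeable channel opened by calcium, stayed between 9.13 and 11.7 FPKM in all 9 libraries. *Trpm6*, a magnesium channel of the *Trpm7* kind, measured 0.956 ± 0.225, 1.23 ± 0.437 and 1.43 ± 0.230 FPKM. Neither *Trpm4* nor *Trpm6* passed in any comparison, and neither did *Trpc4ap*, at 44.0 ± 0.436, 48.0 ± 2.32 and 46.9 ± 1.29 FPKM.

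**Figure D3:**
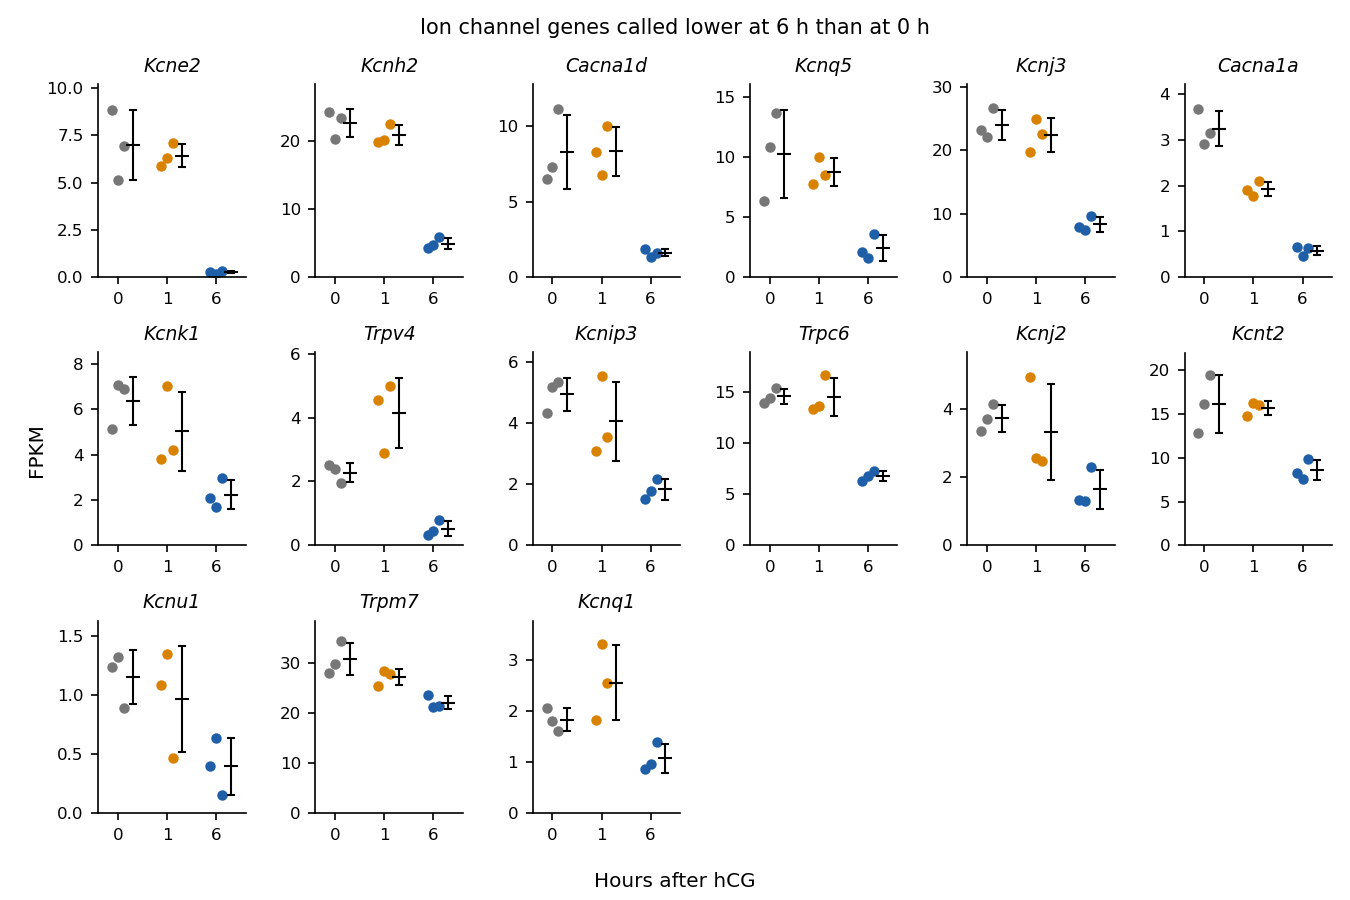
FPKM in each library (points, linear axis from 0) against hours after hCG for 15 genes called lower at 6 h than at 0 h, with the mean and SD of 3 libraries beside each group. *Kcne2*, *Kcnh2* and *Cacna1d* have their 0 h and 1 h libraries mixed and all 6 h libraries below both.

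The third comparison, 6 h against 1 h, shares its 6 h libraries with the one above, so its calls are not separate support. It called 19 of the 49 genes higher and 16 lower (38.8% and 32.7%), where 26.7% and 26.9% of all tested genes were called (53.5% in either direction). The 19 include *Kcnk10*, *Kcne4*, *Kcnv2* and *Kcnrg*, which entered the set through their 6 h libraries only. In 19 genes every 6 h library lay above every 1 h library and in 16 below, against 30.5% and 30.0% of all tested genes. The same libraries gave 14 genes that rose at 6 h against both earlier times without passing at 1 h, and 12 that fell in that way. The share of all tested genes with each of these patterns was not computed, so the counts only describe the set. The 14 included *Trpc5*, *Cacnb3*, *Cacna1c*, *Kcnmb4*, *Kcnt1*, *Kcnk10*, *Kcnk2*, *Kcnab1*, *Kcnab3*, *Kcne4*, *Kcnc2*, *Kcnd2* and *Kcnv2*. The 12 were *Trpc6*, *Trpm7*, *Cacna1d*, *Kcnt2*, *Kcnj2*, *Kcnj3*, *Kcnk1*, *Kcne2*, *Kcnip3*, *Kcnh2*, *Kcnq1* and *Kcnq5*. *Kcnma1* was called lower only here (-0.36 ± 0.13, adjusted p = 0.0368), and that call was lost under 5 of 16 other settings. The falls of *Trpm7* and *Kcnj2* from 1 h to 6 h were lost under 4 and 3 of 16 other settings, and the rise of *Kcnab1* under 4 (adjusted p of 0.052 to 0.063). On the most abundant row alone, *Kcnt2* (adjusted p = 0.0729), *Kcnip3* (adjusted p = 0.303) and *Kcnk2* (adjusted p = 0.079) did not pass at 6 h against 1 h. In all, 39 of the 49 genes passed in at least 1 of the 3 comparisons and 10 in none. The share of all tested genes was not computed for these counts either.

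The ratio between related subunits, taken within each library and so free of library scaling, gives the size of the shift in chosen pairs. The pairs were chosen after their values were seen, from a larger number formed, and are given without a test. *Kcnt1* over *Kcnt2* was 0.400 ± 0.0853 at 0 h (mean ± SD, n = 3), 0.494 ± 0.0600 at 1 h and 1.55 ± 0.231 at 6 h. *Trpc5* over *Trpc6* was 0.158 ± 0.00656, 0.148 ± 0.0383 and 1.60 ± 0.134. In both pairs the ratio was below 1 in every 0 h and 1 h library and above 1 in every 6 h library.

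*Kcnmb4* over its pore *Kcnma1* rose from 0.0531 ± 0.0127 to 0.249 ± 0.0243. *Cacna2d1* over the L-type pore *Cacna1d* went from 2.17 ± 0.500 at 0 h through 2.88 ± 0.523 at 1 h to 39.9 ± 8.88 at 6 h. *Cacnb3* over *Cacna1d* was 1.01 ± 0.331, 1.00 ± 0.206 and 10.7 ± 1.92. Both ratios are set against an L-type pore that fell and do not stand for the calcium pores as a whole. *Cacna1c* rose from 1.12 ± 0.0644 FPKM at 0 h to 2.11 ± 0.306 FPKM at 6 h, and *Cacna1h* was called in no comparison.

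**Figure D4:**
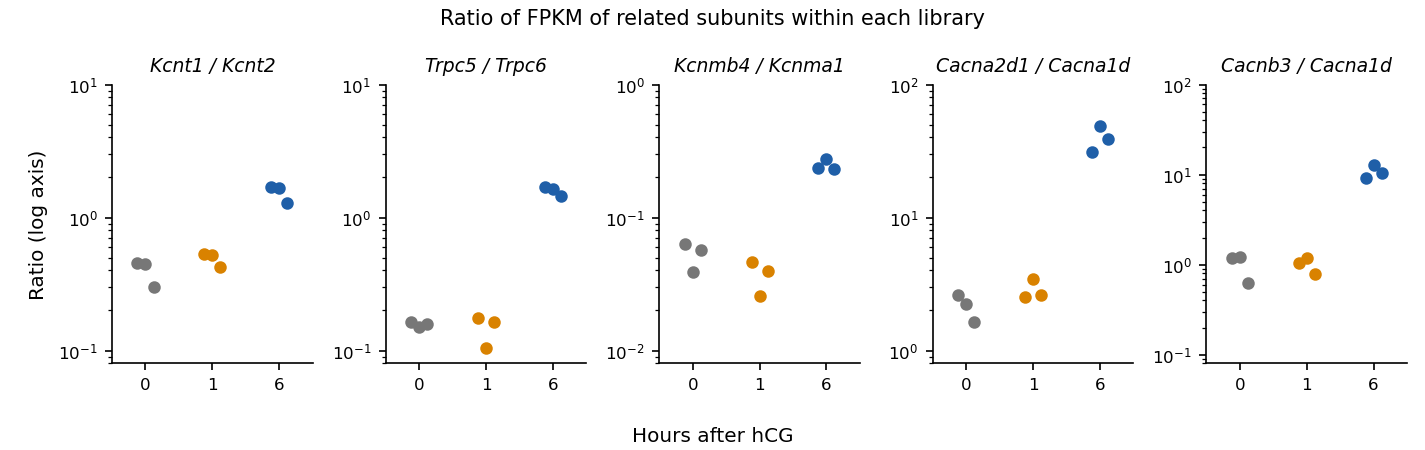
Ratio of the FPKM of related subunits in each library (log axis) against hours after hCG, 1 point per library, for 5 pairs chosen after their values were seen. In every pair the 3 libraries at 6 h lie above all 6 earlier ones.

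Promoter sequence was set beside these patterns for genes that rose and fell together at 6 h. RefSeq promoters of build GRCm38.p6 were matched for 36 of the 49 genes, 59 start sites in all, and the 250 bases before each start were searched on both strands. An AP-1 site (TGANTCA) stood in 4 of 59 (6.78%) against 6.75% of all 32851 RefSeq promoters in the table, and a RUNX site (TGTGGTT) in 2 of 59 (3.39%) against 4.4%. Neither a cyclic AMP response element (TGACGTCA; 1.55% of all) nor an NR4A site (AAAGGTCA; 1.34% of all) was found in the 59 windows, which says only that these letters are not there. The 6 windows below are printed 5′ to 3′ on the gene's strand and end at the base before the start; none overlaps an annotated exon of its gene. The first 3 belong to genes that rose and the last 3 to genes that fell. They were picked from the 59, and 1 in each group holds a match. Matches not printed are AP-1 sites in *Kcne3*, *Kcnip3* and *Kcnip4* and a RUNX site in *Cacnb1*. Of these genes *Kcnip3* fell at 6 h and the others were called in no comparison. *Kcnk2* and *Kcne2* have further start sites, whose windows hold no match. Capitals mark a match, which is a description and not a shown binding site.
Cacna2d1, chr5:15934441-15934690, plus strand: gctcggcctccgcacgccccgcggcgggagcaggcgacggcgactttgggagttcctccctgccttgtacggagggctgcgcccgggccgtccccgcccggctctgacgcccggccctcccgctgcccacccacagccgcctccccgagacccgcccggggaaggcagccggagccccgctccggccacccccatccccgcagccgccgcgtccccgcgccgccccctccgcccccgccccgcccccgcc
Trpc5, chrX:144688181-144688430, minus strand: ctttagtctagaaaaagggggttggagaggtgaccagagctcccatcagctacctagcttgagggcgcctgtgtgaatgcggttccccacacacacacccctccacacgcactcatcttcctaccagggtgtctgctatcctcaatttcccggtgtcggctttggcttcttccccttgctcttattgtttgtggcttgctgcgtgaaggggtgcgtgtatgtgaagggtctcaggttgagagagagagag
Kcnk2, chr1:189344193-189344442, minus strand: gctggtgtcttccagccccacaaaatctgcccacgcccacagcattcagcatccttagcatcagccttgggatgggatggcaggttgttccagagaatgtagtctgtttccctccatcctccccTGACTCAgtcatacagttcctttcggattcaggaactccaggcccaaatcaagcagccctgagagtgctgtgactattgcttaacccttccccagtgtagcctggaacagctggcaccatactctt
Trpc6, chr9:8543892-8544141, plus strand: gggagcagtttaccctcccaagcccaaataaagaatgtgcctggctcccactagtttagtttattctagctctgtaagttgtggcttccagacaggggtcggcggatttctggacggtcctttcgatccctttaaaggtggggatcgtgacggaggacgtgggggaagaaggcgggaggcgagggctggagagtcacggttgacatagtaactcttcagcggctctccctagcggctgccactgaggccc
Kcnj3, chr2:55435720-55435969, plus strand: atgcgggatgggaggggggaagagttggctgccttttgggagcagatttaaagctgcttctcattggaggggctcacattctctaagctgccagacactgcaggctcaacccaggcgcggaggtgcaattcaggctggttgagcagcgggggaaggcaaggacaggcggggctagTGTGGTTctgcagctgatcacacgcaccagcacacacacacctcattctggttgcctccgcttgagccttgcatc
Kcne2, chr16:92292139-92292388, plus strand: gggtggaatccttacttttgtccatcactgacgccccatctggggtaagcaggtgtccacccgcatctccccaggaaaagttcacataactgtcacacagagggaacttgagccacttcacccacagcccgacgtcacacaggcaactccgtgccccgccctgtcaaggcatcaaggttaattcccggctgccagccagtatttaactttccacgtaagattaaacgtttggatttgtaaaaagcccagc
The *Kcnk2* window holds TGACTCA, and the *Kcnj3* window TGTGGTT. The paired TRPC genes, which moved in opposite directions, have no match to the 4 motifs in these windows. The GC content of the windows ranges from 52.4% for *Kcne2* to 82.4% for *Cacna2d1*, where the median over all promoters is 52.4%.

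Proteins that work with these channels were followed as lists, which were written with earlier results of these data known. Of 34 tested partners and regulators (*Trpc4ap* among them), 4 rose and 0 fell at 1 h, and 11 rose and 5 fell at 6 h against 0 h. Of all tested genes, 9.68% rose and 5.98% fell at 1 h, and 28.8% rose and 27.9% fell at 6 h against 0 h. The counts of this list and of those below are to be read beside these shares, and no list was tested against them. The median log2 change was 0.14 at 1 h and 0.13 at 6 h. *Gem* and *Rrad* encode small GTPases that bind calcium channel beta subunits and inhibit the channel. *Gem* rose from 16.2 ± 6.18 to 52.7 ± 2.53 FPKM at 1 h (1.70 ± 0.19, adjusted p = 0.000334), and *Rrad* from 3.94 ± 1.32 to 10.6 ± 1.98 FPKM (1.25 ± 0.19, adjusted p = 0.00194). They rose while *Cacnb3* was at 7.83 ± 0.990 and 8.13 ± 0.329 FPKM at 0 h and 1 h.

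*Kctd12*, an auxiliary subunit of GABA-B receptors that shapes their coupling to G protein-gated potassium channels, rose at 1 h (0.74 ± 0.12, adjusted p = 0.00338) and further at 6 h (1.66 ± 0.12, adjusted p = 3.11e-06). *Sgk1*, a kinase that raises the surface amount of several channels, went from 87.3 ± 32.5 to 162 ± 30.7 FPKM at 1 h (adjusted p = 0.0298), a call lost under 6 of 16 other settings. At 6 h *Ncs1*, a calcium sensor that also modulates A-type channels, rose from 0.879 ± 0.189 to 5.81 ± 0.558 FPKM (1.86 ± 0.13, adjusted p = 2.37e-06). *Wnk4*, a kinase that regulates ion transport, rose by 1.68 ± 0.34 (adjusted p = 0.00189). *Ank3*, which anchors sodium and *Kcnq* channels to the cytoskeleton, fell from 50.3 ± 8.81 to 17.1 ± 3.02 FPKM (log2 -1.5 ± 0.15, adjusted p = 2.81e-05).

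Of 15 tested genes of calcium release and store-operated entry, 0 rose and 1 fell at 1 h (*Orai3*, -0.39 ± 0.09, adjusted p = 0.0182; lost without replicate 1 of the 0 h group or replicate 1 or 3 of the 1 h group, at adjusted p of 0.0505 to 0.0691), and 3 rose and 7 fell at 6 h, with a median of -0.22. *Itpr1*, an inositol trisphosphate receptor through which intracellular calcium is released, fell from 74.2 ± 9.43 to 41.3 ± 3.2 FPKM (adjusted p = 8.94e-05). *Ryr2*, a ryanodine receptor, fell from 4.05 ± 1.24 to 1.81 ± 0.513 FPKM (adjusted p = 0.00571). *Orai1*, the store-operated pore, rose from 5.35 ± 1.20 to 12.1 ± 0.383 FPKM (1.06 ± 0.15, adjusted p = 0.000226), and the cilium and endoplasmic reticulum channel *Pkd2* from 17.3 ± 0.921 to 32.6 ± 4.02 FPKM (0.87 ± 0.09, adjusted p = 2.95e-05).

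Of 11 tested genes of mitochondrial calcium handling, 1 rose and 4 fell at 6 h, with a median of -0.03. At 1 h limma called 0 of them, where 2 had an unadjusted p under 0.05. The riser was *Slc8b1*, the mitochondrial sodium-calcium exchanger, from 4.85 ± 0.978 to 13.5 ± 0.283 FPKM (1.32 ± 0.13, adjusted p = 1.97e-05). Of 18 tested pumps and exchangers, 2 rose and 0 fell at 1 h and 4 rose and 10 fell at 6 h, with a median of -0.31. The calls at 1 h were *Atp2a2*, the calcium pump of the endoplasmic reticulum (adjusted p = 0.0488), and *Slc12a2*, a sodium-potassium-chloride cotransporter (adjusted p = 0.023). They were lost under 13 and 7 of 16 other settings, and both were lost when any 1 library of the 0 h group or replicate 1 or 3 of the 1 h group was left out. *Slc24a4*, a potassium-dependent sodium-calcium exchanger, fell from 12.6 ± 3.82 to 0.949 ± 0.0770 FPKM (log2 -2.77 ± 0.17, adjusted p = 1.13e-06). *Atp1b2*, a beta subunit of the sodium pump, fell from 161 ± 3.54 to 48.2 ± 8.19 FPKM (adjusted p = 7.42e-07), and the potassium-chloride cotransporter *Slc12a7* from 82.2 ± 4.21 to 24.1 ± 3.40 FPKM (adjusted p = 4.76e-07). *Atp2b1*, a plasma membrane calcium pump, rose from 25.1 ± 1.11 to 68.6 ± 5.40 FPKM (1.41 ± 0.09, adjusted p = 1.44e-06).

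Of 24 tested chloride and volume-regulated anion channel genes, 2 rose and 1 fell at 1 h, and 10 rose and 9 fell at 6 h, with a median of 0.04. Within the volume-regulated channel, *Lrrc8c* rose from 7.49 ± 0.837 to 16.1 ± 2.05 FPKM at 1 h (1.01 ± 0.11, adjusted p = 0.000204) and 23.6 ± 1.28 FPKM at 6 h (1.54 ± 0.11, adjusted p = 2.08e-06). Its alternative subunit *Lrrc8d* fell from 33.2 ± 1.05 to 24.5 ± 0.446 and then 13.8 ± 1.67 FPKM (log2 -0.42 ± 0.08, adjusted p = 0.00832, and -1.21 ± 0.08, adjusted p = 1.84e-06). The obligatory subunit *Lrrc8a* rose at 6 h (0.61 ± 0.09, adjusted p = 0.000215), and its call at 1 h was lost under 13 of 16 other settings. *Lrrc8d* at 1 h did not pass on its most abundant row alone (adjusted p = 0.742). *Tmem206*, the proton-activated chloride channel, fell from 75.7 ± 5.16 to 18.1 ± 1.67 FPKM (log2 -2.01 ± 0.09, adjusted p = 1.88e-07). The calcium-activated chloride channel *Ano1* fell from 27.5 ± 4.65 to 6.80 ± 2.0 FPKM (adjusted p = 4e-05), and its relative *Ano4* from 97.9 ± 22.2 to 31.7 ± 10.3 FPKM (adjusted p = 0.000243).

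Of 14 tested cation channels outside the symbol rule, 1 rose and 0 fell at 1 h and 6 rose and 5 fell at 6 h, with a median of -0.10. *Tmem175*, a lysosomal potassium and proton channel, fell from 14.2 ± 0.430 to 5.27 ± 0.596 FPKM (adjusted p = 2.16e-06). The irritant-sensing TRP channel *Trpa1*, whose symbol is outside the rule, rose from 0.0662 ± 0.0159 to 2.25 ± 0.375 FPKM (1.60 ± 0.13, adjusted p = 5.57e-06), and the stretch-activated *Piezo2* from 2.55 ± 0.590 to 7.78 ± 0.262 FPKM (1.32 ± 0.15, adjusted p = 5.6e-05). The receptor *P2rx4*, opened by extracellular ATP, went from 12.7 ± 1.62 to 19.4 ± 3.68 FPKM at 1 h (0.56 ± 0.14, adjusted p = 0.0279), a call lost under 7 of 16 other settings.

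Where a gene had several rows, its rows could move apart. *Kcne2* had most of its level on one row at 0 h and 1 h, which measured 8.82, 5.13 and 6.94 FPKM at 0 h and 5.86, 5.72 and 6.56 FPKM at 1 h. At 6 h that row was close to 0, and what remained of the gene was on its second row, at 0.292, 0.204 and 0.356 FPKM. The second row had already measured 0.000108, 0.583 and 0.515 FPKM at 1 h. Its mean was 0.366 FPKM at 1 h and 0.284 FPKM at 6 h. *Kcnma1*, not called at 6 h as a sum, had opposite rows. Its top row went from 12.3, 13.7 and 12.5 FPKM at 0 h to 5.30, 5.60 and 6.47 FPKM at 6 h, and its second row from 0.853, 1.92 and 1.67 FPKM to 7.21, 7.43 and 6.06 FPKM. Tested on its most abundant row, *Kcnma1* was lower at 6 h by -1.03 (adjusted p = 0.000238). The tables name no transcripts, so which form each row stands for is not known here.

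**Figure D5:**
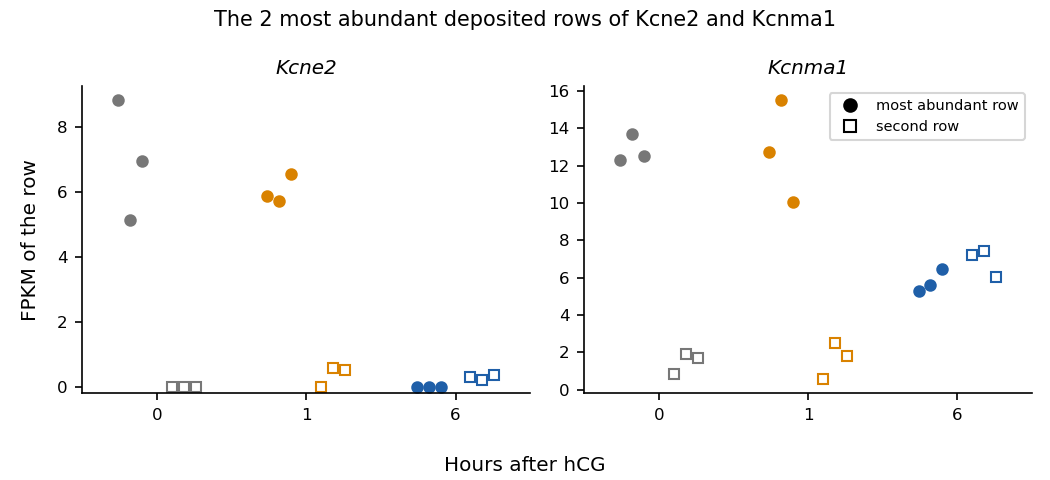
FPKM of the most abundant row (filled circles) and the second row (open squares) of *Kcne2* and *Kcnma1* in each library, against hours after hCG. For *Kcnma1* the top row falls from above 12 FPKM in the 0 h libraries to below 7 FPKM at 6 h while the second row rises above 6 FPKM.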

How the data were processed

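RNA-seq of mouse granulosa cells was analysed at 0, 1 and 6 h after hCG, 3 libraries each. The deposited tables hold FPKM in 54759 rows per library. HISAT2 2.0.5 and build mm10 are named, per the submitters' processing notes. What computed the FPKM values, on which annotation and with which filters, is not given in the sources used here. Each library has 9364 to 9682 rows with a value that is not 0 yet under 0.001 FPKM. Values therefore are not whole multiples of a read, reads could not be recovered and the depth is unknown. The kit named in the labels' protocols does not give the strand setting, and genes that overlap on opposite strands may have taken each other's reads.

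Rows were summed per gene identifier. The 14535 genes with at least 1 FPKM in at least 3 libraries were tested as log2(FPKM + 1), with a pseudocount of 1, by limma 3.58.1 (R 4.3.3; prior variance with a trend). A single fit of the 3 group means over all 9 libraries had 6 residual degrees of freedom. The threshold was an adjusted p of 0.05 (Benjamini-Hochberg, over all tested genes). Log2 changes are given with their SE and understate the change of low genes. Levels are mean FPKM ± SD (n = 3). The fit was tested on simulated data. Coordinates came from GENCODE M21 and promoters from RefSeq.

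The members, gene lists and tests were chosen with earlier results of these data known. Genes named are, in each comparison, the 10 highest and 10 lowest changes among called members with a mean of at least 2 FPKM, the 3 most abundant members of each role, and at most 4 called genes of each further list and comparison; other members are named to account for the set. Results for a few genes are not reported here, though the counts include them. The same replicate numbers stand in each group. Most pairs of same-numbered libraries deviated together, but not every one (correlations of -0.0783 to 0.147). Differently numbered pairs had correlations of -0.1505 to 0.0861. Whether the numbers mark a shared origin was not tested. They were not taken as pairing in the main fit. The alternatives were a pseudocount of 0.1, no filter, a constant sum, quantile normalization, the most abundant row, 2 groups only, a replicate block and each library left out. They were extended to the members outside the rule and to the named genes of the further lists after seeing the data.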

Additional observations from a re-analysis of the deposited data

How the results depend on the processing

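Over 16 alternative settings, the 49 genes in 3 comparisons gave 2255 results with an unchanged call, 81 that no longer passed and 16 that newly passed. Of the results that passed in the main fit or in the alternative, 0 turned over. Results that passed in neither are among the 2255 whatever their direction. With a constant sum, which moved the median of all genes by -0.14 at 1 h and -0.08 at 6 h, 2 genes were lower at 1 h in place of 1, *Trpm7* being added. Leaving out each library in turn gave 3 to 5 genes higher and 0 to 1 lower at 1 h against 0 h, 16 to 19 higher and 13 to 16 lower at 6 h against 0 h, and 17 to 19 higher and 13 to 17 lower at 6 h against 1 h. With the replicate block, which rests on shared numbers only, 4 genes rose and 1 fell at 1 h, 18 rose and 15 fell at 6 h against 0 h, and 19 rose and 18 fell at 6 h against 1 h. The cause of the single lost calls was not tested. The depth is unknown, so no counting error can be given for genes near 1 FPKM, and a value listed at 0 may be a failed estimate.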

Other observations

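Some channel genes just below the filter had all 6 h libraries above all earlier ones, by values seen after the analysis and without a test. They were picked by the level of their third-highest library, which favours genes high in all 3 libraries of a single time. The pattern is thus partly built into the choice and is no support for the calls above. *Kcnk13*, a tandem-pore channel, measured 0.294, 0.201 and 0.235 FPKM at 0 h and 0.748, 1.55 and 1.60 FPKM at 6 h. *Cacnb2*, a calcium channel beta subunit, measured 0.370, 0.412 and 0.587 FPKM at 0 h and 1.17, 1.26 and 0.762 FPKM at 6 h. *Trpc4*, a close relative of *Trpc5*, measured 0.572, 0.438 and 0.756 FPKM at 0 h and 0.969, 1.40 and 0.773 FPKM at 6 h. *Kcnab2*, a beta subunit of voltage-gated potassium channels, lay on the other side, at 0.647, 0.682 and 0.926 FPKM at 0 h and 0.197, 0.193 and 0.192 FPKM at 6 h.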
